A study of Mus musculus with 12 samples.

Results

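The comparison of 94 dB noise with 70 dB ambient sound was made over every gene of the cochlea that had enough reads. The cochlea is the hearing organ of the inner ear. The members are the 19497 genes, of 35496 in the deposited table, that passed a filter on low counts, measured in the 4 libraries at 94 dB and the 4 at 70 dB out of 12 libraries in all. The mice were all FVB/NCrl, an inbred strain, aged 60 postnatal days, and the labels name no transgene or drug. Awake animals of the ambient group spent 30 minutes at 70 dB and animals of the noise group 30 minutes at 94 dB, a level the labels call loud, and the cochleae were taken straight afterwards. A further group of 4 libraries at 105 dB is used here only to place the 94 dB values. The labels do not say whether 1 library is 1 animal or a pool, so the p-values measure the spread between these libraries, which may in part be technical.

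Sound bends the stereocilia of hair cells, and the resulting current drives release of glutamate onto the fibres of spiral ganglion neurons. The ion gradients for this current are kept up by the stria vascularis and the fibrocytes of the lateral wall, and potassium is returned through supporting cells coupled by connexins. Within minutes of a strong stimulus many cell types transcribe immediate early genes, which encode short-lived transcription factors, phosphatases and mRNA decay factors and need no new protein for their induction.

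The cochlear label was checked against marker genes. At 70 dB Coch, the main secreted protein of the spiral ligament, was at 6870.0 ± 707 CPM (CPM are read counts scaled to a common library size with TMM factors; mean ± SD, n = 4). Otof, which inner hair cells need for transmitter release, was at 40.2 ± 4.09 CPM and Ocm, a calcium buffer of outer hair cells, at 16.1 ± 0.841 CPM. Slc26a5, which encodes the outer hair cell motor protein prestin, had only 0.25 ± 0.0852 CPM. The tissue also held markers of red cells (5 genes summing to 17130 to 21010 CPM per library at 70 dB), skeletal muscle (3702 to 5993 CPM) and bone (1796 to 2163 CPM). In bulk tissue, fewer cells of a type and less RNA per cell cannot be told apart. The ambient libraries held 31141706 to 42317781 counts each and the noise libraries 32302796 to 38733490.

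The 94 dB libraries fell into 2 pairs. Genes of the mitochondrial genome took 5.08 to 5.68% of counts at 70 dB, 3.53% and 3.59% in 94 dB replicates 1 and 2, and 2.69% and 2.73% in replicates 3 and 4. Haemoglobin genes took 1.68 to 2.04% at 70 dB, 1.75% and 2.07% in 94 dB replicates 1 and 2, and 2.90% and 2.95% in replicates 3 and 4. Among the ambient libraries, replicate 4 stood apart in genes of sensory ganglia. Replicates 2 and 3 stood apart in heat shock genes and in glucocorticoid targets such as Tsc22d3. Both cases are described beside those genes. Values without them are given beside the lists and genes they touch most.

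At an adjusted p under 0.05 (edgeR quasi-likelihood test, Benjamini-Hochberg over 19497 genes), 5085 genes or 26.1% differed. Of these, 2716 (13.9% of genes tested) were higher at 94 dB and 2369 (12.2%) were lower. These shares are the background for every list below. For 2540 of the genes tested every 94 dB library lay above every 70 dB library, and for 2405 every one lay below. These counts are the background where groups are said not to overlap. Most differences were small: the median size among called genes was 0.39 on the log2 scale, 244 genes were over 2-fold higher and 91 were over 2-fold lower. Without 94 dB replicates 3 and 4 the test called 1610 genes (1034 higher, 576 lower), and with a trend on GC content and exon length removed from each library it called 3191. Of the 5085 calls, 2279 (44.8%) held with the trend removed, and 202 of the genes then had a fold change of the opposite sign, 2 of them as calls. Across 25 alternative settings, 692 of the genes called higher and 317 of those called lower were called in the same direction every time. A gene named below as called at 94 against 70 dB kept that call without 94 dB replicates 3 and 4 and with the trend removed unless its loss is stated, and "both settings" means these 2. In the first setting 5.12% of all genes were higher and 2.85% lower.

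The AP-1 and ATF factors, which pair as dimers and bind the promoters and enhancers of stimulus-responsive genes, had a larger share of higher members than any of the other 68 lists. Of 15 subunits tested, 12 were higher and none lower, with a median log2 fold change of 0.79 against -0.02 over all genes. Jun (chr4:95049034-95052222; all gene coordinates are on GRCm38) was at 56.6, 58.8, 63 and 53.4 CPM in the 4 ambient libraries and at 124, 96, 113 and 114 CPM at 94 dB. Junb stood at 36.4, 36.8, 35.4 and 29.5 CPM at 70 dB and 75.8, 87.3, 121 and 99 CPM at 94 dB. The 2 groups of libraries did not overlap for either gene, and the log2 fold changes were 0.95 ± 0.09 (SE, adjusted p = 5.2e-06) and 1.47 ± 0.12 (adjusted p = 4.3e-06). Fosb, a FOS family subunit that is nearly silent in resting tissue, had 0.984, 1.96, 1.03 and 1.03 CPM at 70 dB and 4.83, 3.93, 3.47 and 4.21 CPM at 94 dB. Maff, a small MAF protein that pairs with AP-1 and NRF factors, had 6.07, 7.26, 9.3 and 6.09 CPM at 70 dB and 19, 18.6, 23.1 and 19.9 CPM at 94 dB. Both were higher in every noise library than in any ambient one, by 1.70 ± 0.20 and 1.49 ± 0.13 (adjusted p = 5.3e-05 and 2.3e-06). Mafg, Mafk, Fosl2 and Jdp2, further dimer partners, rose by 0.49, 0.57, 0.58 and 0.69. Jun and Junb each have a gene on the opposite strand (Junos and Prdx2), and the use of strand in counting is not given in the sources used here. On noise replicates 1 and 2 alone, 11 of the 15 were still called higher, where 5.12% of all genes were.

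Nuclear receptors of the NR4A group are orphan receptors induced by calcium and cyclic AMP. Nr4a3 was at 4.71, 6.93, 10.4 and 3.17 CPM at 70 dB and 20.7, 20.5, 21.8 and 22.7 CPM at 94 dB, a difference of 1.76 ± 0.28 (adjusted p = 0.0015). The ambient values spread widely, the noise values lay close together, and the groups did not overlap. The list it belongs to, which also holds activity-regulated genes of neurons, had 4 of 12 members higher and none lower, with a median of 0.11. Among feedback inhibitors of the MAP kinase pathway 6 of 22 rose and 1 fell. Rasd1, a small G protein first found as a dexamethasone-induced gene, had 5.29, 4.72, 6.81 and 6.31 CPM at 70 dB and 15.9, 19.5, 21.4 and 15 CPM at 94 dB (1.64 ± 0.13, adjusted p = 1.3e-06). Dusp2, a phosphatase of ERK and p38 kinases, rose by 0.95 and Spred2, an inhibitor of RAF activation, fell by 0.52. The CREB and salt-inducible kinase list moved both ways, with 3 of 20 higher and 4 lower. When noise replicates 3 and 4 were left out, the 3 lists had 2, 4 and 2 members higher and none, 1 and 2 lower.

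Of 16 Ier genes and genes for mRNA decay and antiproliferative proteins 9 were higher and 7 were not called. Tob2 (chr15:81848272-81858796), which recruits the CCR4-NOT deadenylase to mRNA, had the smallest p of its list, with 47.6, 50.6, 54.8 and 42.9 CPM at 70 dB and 107, 109.9, 113 and 104 CPM at 94 dB (1.14 ± 0.07, adjusted p = 2.1e-07). Btg2, a TOB relative, was at 76.7, 88.9, 78 and 68.5 CPM at 70 dB and 154, 160.0, 139.8 and 134 CPM at 94 dB (0.91 ± 0.10). Zfp36, which binds AU-rich elements of cytokine and immediate early mRNAs and speeds their decay, was at 51.1, 45.7, 57.7 and 40.9 CPM and 92.1, 108, 87.1 and 83.6 CPM (0.92 ± 0.10). For all 3 genes every noise library lay above every ambient library. Csrnp1, a nuclear protein induced by AXIN1, rose by 1.31 ± 0.12 (adjusted p = 3.2e-06), from 8.91 to 12 CPM to 22 to 29.9 CPM. The list as a whole had 9 of 16 members higher and none lower, with a median of 0.34, and without 94 dB replicates 3 and 4 it had 8 higher and a median of 0.38.

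Of the Kruppel-like factors, zinc finger proteins that bind GC-rich promoter elements, 8 of 15 were higher and 1 lower, with a median of 0.29. Klf2, a factor that shear stress induces in endothelium, was at 52.5, 48.7, 57.4 and 36.2 CPM at 70 dB and 103, 107, 121 and 117 CPM at 94 dB (1.201 ± 0.12, adjusted p = 2.9e-05). Klf15, a glucocorticoid-induced metabolic regulator, was at 33.5, 42.9, 45.5 and 32.4 CPM and 61.1, 67.6, 71.8 and 67 CPM (0.79 ± 0.10). The noise values of both lay above all ambient values. Klf7, a factor of neuronal growth, was the member that fell, by 0.53 (adjusted p = 0.0074), a call lost in both settings. Of 6 C/EBP factors 4 rose and 1 fell. Cebpd, an acute-phase factor, was at 34.1, 47.8, 40.8 and 35.2 CPM at 70 dB and 63.1, 96.2, 152 and 168 CPM at 94 dB, so that noise replicates 3 and 4 were highest. Its log2 fold change was 1.603 ± 0.27 (adjusted p = 0.0025), and 1.02 without those 2 libraries. Cebpa was more even, at 37.3, 43, 38.5 and 33.3 CPM and 59.1, 69.97, 70.5 and 72.7 CPM (0.84 ± 0.09). The Cebpa and Cebpd loci each overlap another gene on the opposite strand.

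Promoter sequence was read for members called higher in these lists and in some lists described below. The lists were those of stimulus response, with glucocorticoid targets, FOXO and mTOR genes and clock genes. Of the 75 distinct genes called higher in these 11 lists, 61 were matched by symbol to a RefSeq promoter window (GRCm38.p6). The cyclic AMP response element TGACGTCA, which CREB and ATF dimers bind and which reads the same on both strands, lay within 250 bases before the start site of 5 of the 61 (8.20%). It lay in the same stretch of 366 of 13533 matched genes tested (2.70%) and of 508 of all 32851 windows (1.55%). The 61 windows were also richer in G and C, with a median of 64.8% against 58.8% for all genes tested. The AP-1 site TGANTCA, searched on both strands, was in 4 of the 61 (6.56%) and in 6.11% of genes tested. These shares are descriptions of the letters in these windows. The windows below are the 200 bases before the start site, on the strand of the gene, of genes that carry such a match. They are shown because they put the 2 motifs beside genes described here, and capitals mark the motif.
Btg2, GRCm38.p6 chr1:134079156-134079355, minus strand: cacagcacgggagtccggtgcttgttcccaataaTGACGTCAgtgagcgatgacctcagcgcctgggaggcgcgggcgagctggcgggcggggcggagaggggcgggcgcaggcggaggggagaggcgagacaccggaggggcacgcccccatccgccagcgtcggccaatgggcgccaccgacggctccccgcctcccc
Maff, GRCm38.p6 chr15:79347320-79347519, plus strand: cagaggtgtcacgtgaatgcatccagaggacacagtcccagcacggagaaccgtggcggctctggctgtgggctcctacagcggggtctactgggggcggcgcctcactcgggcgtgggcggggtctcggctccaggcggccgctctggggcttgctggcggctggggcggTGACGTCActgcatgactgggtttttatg
Dusp1, GRCm38.p6 chr17:26508473-26508672, minus strand: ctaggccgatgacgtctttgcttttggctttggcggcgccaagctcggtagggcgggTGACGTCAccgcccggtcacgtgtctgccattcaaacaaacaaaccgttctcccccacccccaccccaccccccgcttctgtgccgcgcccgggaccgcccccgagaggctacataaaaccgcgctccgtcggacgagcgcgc
Csrnp1, GRCm38.p6 chr9:119983024-119983223, minus strand: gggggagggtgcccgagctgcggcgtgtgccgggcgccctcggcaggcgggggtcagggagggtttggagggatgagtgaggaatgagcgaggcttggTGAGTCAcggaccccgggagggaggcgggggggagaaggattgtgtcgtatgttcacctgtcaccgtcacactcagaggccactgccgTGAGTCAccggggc
The first 3 hold 1 cyclic AMP response element each, and Csrnp1 holds 2 copies of the AP-1 site. Dusp1, which dephosphorylates MAP kinases, was at 48.4, 63.9, 62.9 and 47.1 CPM at 70 dB and 161, 194, 191 and 177 CPM at 94 dB, with no overlap.

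**Figure D1:**
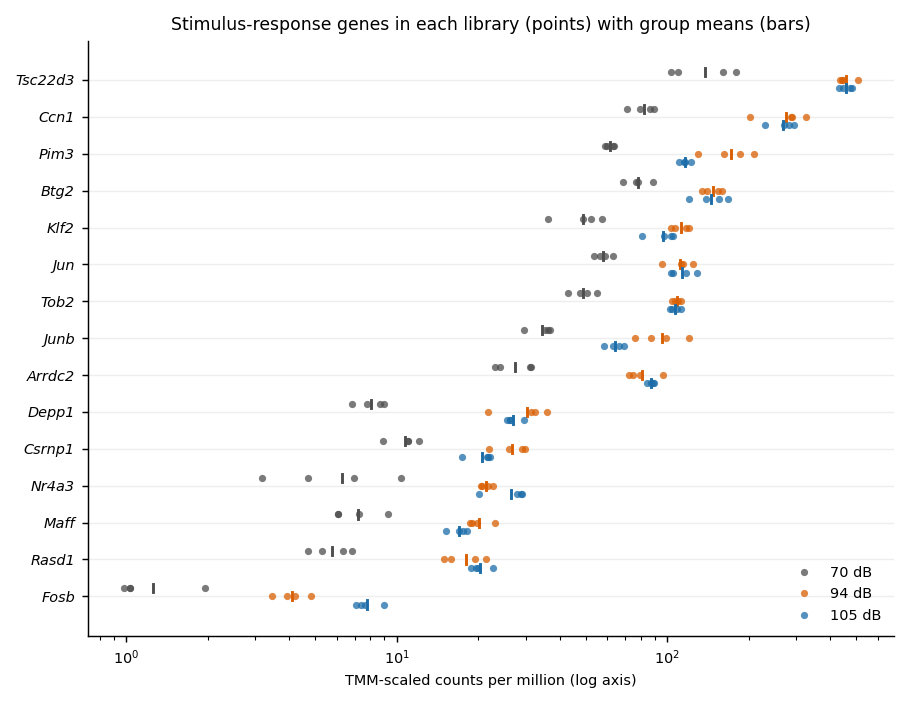
TMM-scaled CPM on a log axis for 15 stimulus-response genes in each library at 70, 94 and 105 dB, with points for libraries and short bars for group means. For each gene all 4 points at 94 dB lie above all 4 at 70 dB, as for Tsc22d3 with 103 to 179 CPM at 70 dB and 435 to 506 CPM at 94 dB. For several of these genes this was a condition of being named.

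Targets of the glucocorticoid receptor, which stress hormones activate, had 15 of 24 members higher and 1 lower, with a median of 0.60. Tsc22d3 (chrX:140539528-140600659), which encodes the anti-inflammatory protein GILZ, was at 103, 160.5, 179 and 109.7 CPM in the ambient libraries and 442, 506, 447 and 435 CPM in the noise libraries (1.73 ± 0.15, adjusted p = 1.5e-05). Glul, which makes glutamine from glutamate, went from 701 ± 93 to 922 ± 24.6 CPM. Without 94 dB replicates 3 and 4, 12 of the 24 were called higher and the median was 0.71. Ambient replicates 2 and 3 were the highest ambient libraries in Tsc22d3. Without them, a setting chosen after seeing the data, 18 of the 24 were higher, none was lower and the median was 1. In that setting 8.27% of all genes were higher. These 2 libraries were high in targets of this same list, so larger rises without them follow from that choice. The count is no test of a hormone response. Hormone and immediate early targets are not separated here, since Dusp1, Cebpd, Klf15 and other members stand on more than 1 list.

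Genes of FOXO and mTOR signalling, which slow growth when nutrients or insulin are short, moved both ways, with 7 of 23 higher and 4 lower. Arrdc2, an arrestin-domain protein, was at 23.1, 31.5, 31.1 and 24.2 CPM at 70 dB and 74.6, 96.2, 79.3 and 72 CPM at 94 dB (1.55 ± 0.11, adjusted p = 4e-07). Depp1, a FOXO target, stood at 6.84, 8.7, 7.75 and 8.94 CPM and 21.7, 31.4, 32.5 and 35.9 CPM (1.92 ± 0.13, adjusted p = 3.9e-07). Neither gene's groups overlapped. With noise replicates 1 and 2 only, the list had 5 higher and none lower. Pim3, a kinase whose mRNA is itself short-lived, belongs to no list and was at 60.04, 63, 63.8 and 59 CPM at 70 dB and 129.9, 162, 210.0 and 185 CPM at 94 dB (1.48 ± 0.11, adjusted p = 7.1e-07).

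Of 22 circadian clock genes 8 were higher and 4 lower. Nr1d1, which encodes the clock repressor REV-ERB alpha, was at 187, 135, 139.9 and 139 CPM at 70 dB and 96.4, 97.5, 96.6 and 85.6 CPM at 94 dB, with no overlap (-0.68 ± 0.09, adjusted p = 0.00013). Ciart, another clock repressor, moved the other way, from 8.43 ± 1.39 to 15.3 ± 1.56 CPM (0.86 ± 0.12). Nr1d1 overlaps Thra on the opposite strand. On noise replicates 1 and 2 alone, the clock list had 3 higher and 2 lower. The labels used here give no time of day for the exposures, and its part in these values was not tested.

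Growth arrest and p53-linked genes had 8 of 19 members higher and 1 lower, or 6 and none without noise replicates 3 and 4. Plk3, a stress-activated kinase, rose by 0.62, and Bax, which permeabilises mitochondria in apoptosis, by 0.85 (adjusted p = 0.00044 and 0.0019). The inflammatory lists had smaller shares of higher members than the growth arrest list. Of the NF-kB subunits and inhibitors 4 of 18 rose and 1 fell, of the chemokines and their receptors 3 of 28 rose and 1 fell, and of the interferon-stimulated genes 7 of 28 rose and 1 fell. Cytokine receptors and SOCS feedback genes had 8 of 24 higher and 2 lower. Tnfrsf12a, the receptor for the cytokine TWEAK, was at 11.3, 17.8, 16.8 and 9.63 CPM at 70 dB and 25.1, 31.1, 50 and 50.4 CPM at 94 dB, again highest in noise replicates 3 and 4 (1.49 ± 0.26, adjusted p = 0.0024). Cish, a SOCS-type inhibitor of JAK and STAT signalling, went from 4.93 ± 1.31 to 9.26 ± 0.592 CPM. When noise replicates 3 and 4 were left out, the chemokine list had no higher member and 1 lower, the cytokine list 3 higher and none lower, the interferon list 3 and none, and the NF-kB list 2 and none.

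**Figure D2:**
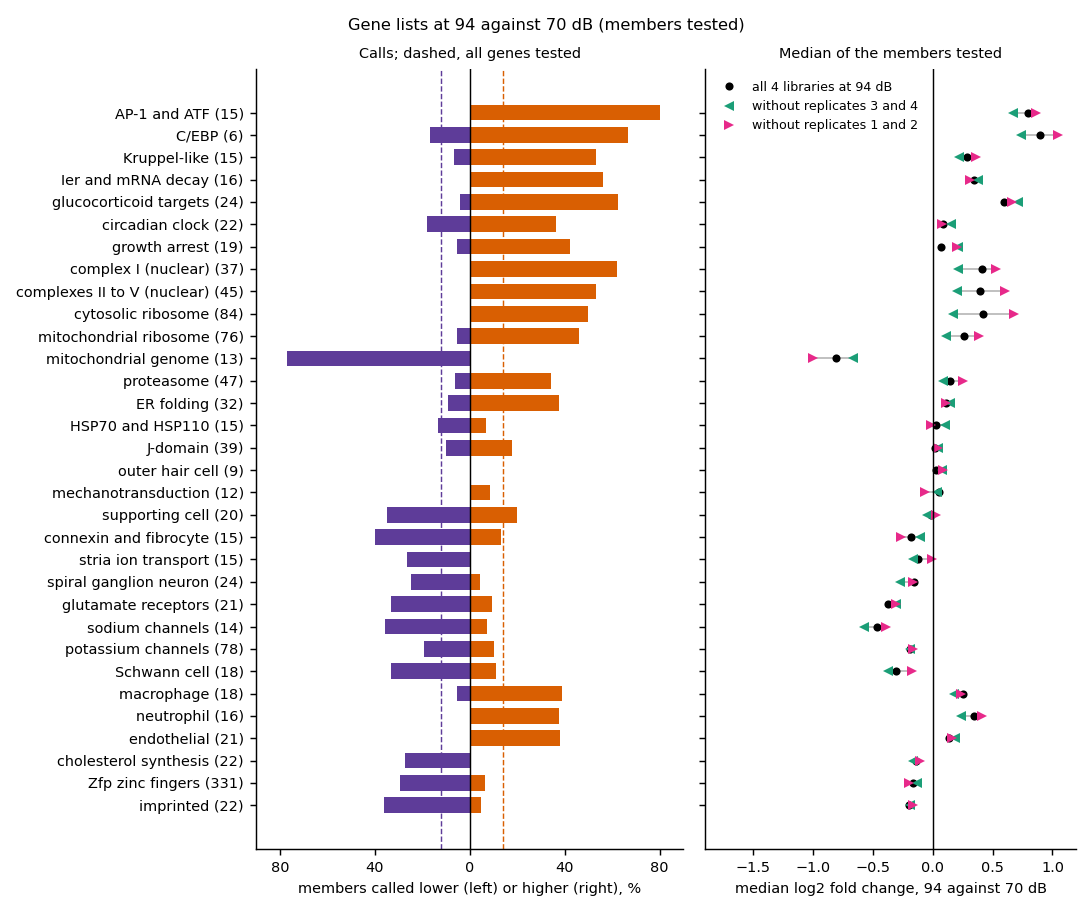
Left, share of the tested members of 32 gene lists called lower (left of 0) or higher (right of 0) at 94 against 70 dB, with dashed lines for all genes tested (12.2% and 13.9%). Right, the median log2 fold change of each list with all 4 libraries at 94 dB (circles) and with either pair left out (triangles), where the mitochondrial genome list lies lowest at -0.81 and the ribosomal and respiratory lists move most between the pairs.

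The study's title concerns protein misfolding stress and the proteostasis network, which folds, holds and degrades misfolded protein. In the 4 chaperone lists 15.0% to 28.2% of the members were called, against 26.1% of all genes. Of the HSP70 and HSP110 chaperones 1 of 15 rose and 2 fell, and of the HSP90 chaperones, cochaperones and heat shock factors 2 of 20 rose and 1 fell. Of the small heat shock proteins and BAG cochaperones 3 of 15 rose, and of the J-domain proteins 7 of 39 rose and 4 fell. The ambient libraries themselves spread widely in heat shock genes. Hspb1, a small heat shock protein, was at 79.5, 195, 231 and 87.2 CPM at 70 dB and 218, 258, 268 and 239 CPM at 94 dB, and Hsph1, an HSP110, was at 141, 257, 353 and 166 CPM and 247, 228, 183 and 185 CPM. In both genes ambient replicates 2 and 3 were the highest ambient libraries and replicates 1 and 4 lay below every noise library (adjusted p = 0.13 and 0.77). What set those 2 ambient libraries apart was not tested. They were left out because they were high in these same genes, so larger rises without them follow from that choice. Without them the log2 fold change of Hspb1 was 1.56, and that of Hsph1 turned from -0.12 to 0.46. The HSP70 list then had 5 higher and 1 lower, the HSP90 list 7 higher, the small heat shock list 6 higher and the J-domain list 9 higher and 1 lower, where 8.27% of all genes were higher and 7.20% lower. In the 4 lists the number of members called higher was larger without those 2 ambient libraries, while the number over all genes was smaller. These counts rest on the same choice and are no test of a chaperone response. Fkbp4, an HSP90 cochaperone of steroid receptors, rose by 0.41 ± 0.08, from 227, 266, 293 and 245 CPM to 323, 331, 352 and 360.4 CPM with no overlap (adjusted p = 0.0018). Hspb2, a small heat shock protein of muscle that overlaps Cryab, rose by 1.02. Without noise replicates 3 and 4 no HSP70 or HSP110 member was called, 2 of the HSP90 list were higher, and 1 of the small heat shock list and 3 of the J-domain list were.

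Of the proteasome subunits and assembly factors 16 of 47 rose and 3 fell, with a median of 0.14. Psmb8, a catalytic subunit of the immunoproteasome, was at 17, 21.4, 19.6 and 18.9 CPM at 70 dB and 27.5, 37, 34.9 and 39.7 CPM at 94 dB (0.85 ± 0.11, adjusted p = 8.5e-05), while Psmd1, a large subunit of the regulatory cap, fell by 0.37. Of the prefoldin and chaperonin subunits 5 of 15 rose and 1 fell. Pfdn6 of prefoldin had 21.4, 23.2, 19.2 and 23.5 CPM and 41.7, 41.2, 56 and 53.7 CPM (1.14 ± 0.12). Of the endoplasmic reticulum folding and degradation genes 12 of 32 rose and 3 fell. Pdia6, a disulphide isomerase, rose by 0.40. Atf5, a transcription factor of the integrated stress response, went from 58.1, 53, 53 and 55.3 CPM to 85.3, 81.5, 96.5 and 90.01 CPM (0.69 ± 0.08, adjusted p = 4.6e-05), and its list had 6 of 27 members higher and 2 lower. Leaving out noise replicates 3 and 4 took the proteasome list to 6 higher and 2 lower, the reticulum list to 2 and 1, the prefoldin and chaperonin list to 2 and none, and the stress response list to 3 and 1.

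Of 41 ubiquitin pathway genes 9 were higher and 6 lower, and 2 were higher and 1 lower without noise replicates 3 and 4. Autophagy and lysosome genes had 9 of 39 members higher and 3 lower. The ATG8 family members Map1lc3a and Gabarapl2, which coat autophagosomes, rose by 0.82 and 0.54, and the lysosomal protease gene Ctsd by 0.58. Among mitochondrial chaperones and import factors 11 of 31 rose and 3 fell. Tomm7, a small subunit of the outer membrane translocase, was at 21.4, 23.9, 21.9 and 21.7 CPM and 39.5, 43.4, 58.8 and 46 CPM, and Timm13, a small chaperone of the space between the membranes, at 29, 28.7, 24.2 and 25.8 CPM and 54.3, 55.8, 72.6 and 72.9 CPM. The noise values of both lay well above the ambient values. NRF2-linked antioxidant genes had 5 of 30 higher and 2 lower. Keap1, the sensor that holds NRF2 down, rose by 0.45. With noise replicates 1 and 2 only, the autophagy list had 4 higher, the mitochondrial import list 6 and the NRF2 list 2, with 1 lower in all.

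Many nuclear genes of translation and respiration rose, and most genes of the mitochondrial genome fell. Of 84 cytosolic ribosomal protein genes 42 were higher and none lower, with a median of 0.42. Of 76 mitochondrial ribosomal protein genes 35 were higher and 4 lower. Of 37 nuclear subunits of complex I, which takes electrons from NADH, 23 were higher and none lower (median 0.41), and of 45 nuclear subunits of complexes II to V 24 were higher and none lower (median 0.39). Atp5e, the small epsilon subunit of ATP synthase, was at 81.2, 88.1, 71.4 and 74.5 CPM at 70 dB and 165, 148, 262 and 274 CPM at 94 dB (1.43 ± 0.22, adjusted p = 0.0014). Uqcr11, a small subunit of complex III, stood at 50.8, 48.8, 38.1 and 50.3 CPM and 81.2, 76.1, 161 and 166 CPM. Rplp1, an acidic protein of the ribosomal stalk, stood at 395, 468, 386 and 445 CPM and 702, 728, 1180.0 and 1061 CPM. In all 3 genes the groups did not overlap, and noise replicates 3 and 4 were far above replicates 1 and 2. Rps29, of the small ribosomal subunit, was more even, at 149, 124, 114 and 132 CPM and 269.6, 265, 309 and 292 CPM (1.13 ± 0.12, adjusted p = 2.4e-05). The cytosolic ribosomal median was 0.17 without noise replicates 3 and 4 and 0.68 without replicates 1 and 2, and the number of higher members was 17 and 65, where 5.12% and 15.3% of all genes were higher. For complex I the medians were 0.21 and 0.53, with 12 and 27 members higher, and for the mitochondrial ribosome 10 and 47 members were higher. Many ribosomal protein genes have processed pseudogenes, and how reads with several alignments were counted is not given in the sources used here.

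The 13 protein genes of the mitochondrial genome moved the other way, 10 lower and none higher, with a median of -0.81. mt-Nd1, a core subunit of complex I, was at 6271, 6498, 6512 and 6465 CPM at 70 dB and 4032, 4092, 3544 and 3367 CPM at 94 dB (-0.78 ± 0.08, adjusted p = 2.3e-05). mt-Cytb, the cytochrome b of complex III, was at 8938, 8524, 8935 and 8246 CPM and 6546, 6742, 5044 and 5141 CPM (-0.56 ± 0.10). All noise values of both genes lay below all ambient values, and noise replicates 3 and 4 were the lowest. Complex I thus had subunits that rose (nuclear) and subunits that fell (mitochondrial) in the same libraries. The median of the 13 genes was -0.66 without noise replicates 3 and 4 and -1.0 without replicates 1 and 2.

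**Figure D3:**
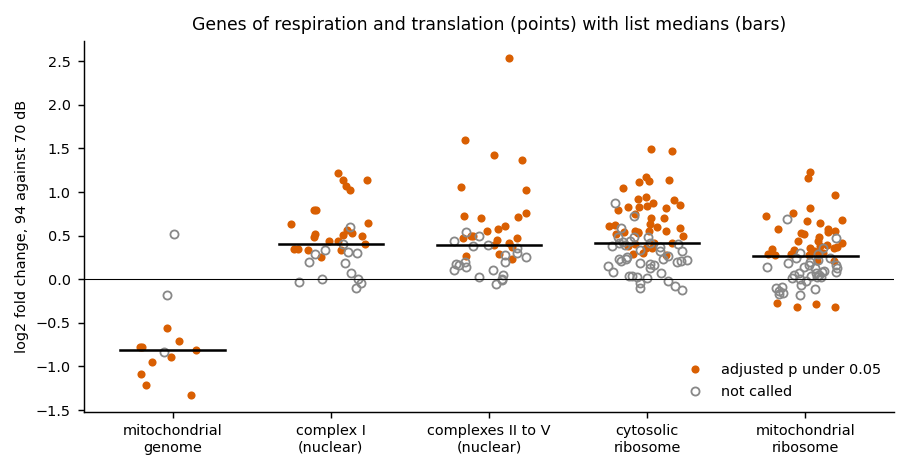
Log2 fold change at 94 against 70 dB of each member of 5 lists, filled where the adjusted p is under 0.05 and open otherwise, with bars at list medians. The mitochondrial genome list centres at -0.81, while the nuclear respiratory and cytosolic ribosomal lists centre between 0.39 and 0.42.

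Direction went with the GC content and length of the gene. Among 16044 protein-coding genes sorted into 5 equal groups by the GC content of their exons, the share called higher was 2.9% in the lowest group and 35.3% in the highest, and the share called lower was 32.4% and 1.3%. The median log2 fold change rose from -0.19 to 0.22 over the 5 groups. By exon length the shares ran the other way, with 27.1% of the shortest and 5.2% of the longest group called higher and 3.7% and 26.8% called lower. The same held for the span of the gene on the chromosome, with 31.5% and 3.6% higher and 4.1% and 27.6% lower. What sets this trend was not tested. With the trend on GC content and exon length removed, the AP-1 list had 10 of 15 higher, the glucocorticoid list 13 of 24, complex I 17 of 37 and the cytosolic ribosomal list 34 of 84 higher and 2 lower. The mitochondrial ribosomal list fell to 21 higher and 4 lower and the numbered zinc finger list to 13 higher and 35 lower, where 9.57% of all genes were then higher and 6.80% lower. Among named genes that kept their call, the log2 fold change shrank by over 1.5 times in the immune and stress genes C1qa (0.45), C1qc (0.31), Cd79a (0.43), Atf5 (0.31), Hspb2 (0.58), Fkbp4 (0.23), Keap1 (0.28), Map1lc3a (0.31), Ctsd (0.37), Bax (0.36) and Plk3 (0.36). It shrank likewise in the regulators and cochlear or neural genes Cebpa (0.48), Jdp2 (0.44), Id1 (0.33), Id3 (0.43), Lfng (0.45), Lgr5 (-0.35), Col9a2 (0.28), Fbxo2 (0.30) and Kcnb2 (-0.34), and in Rplp1 and Uqcr11 (0.68 and 0.86). Leaving out noise replicates 3 and 4 did the same to Uqcr11 (0.75), Bax (0.53), Fbxo2 (0.48), Id3 (0.40) and Tpi1 (0.29), beside Cebpd and Otos.

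**Figure D4:**
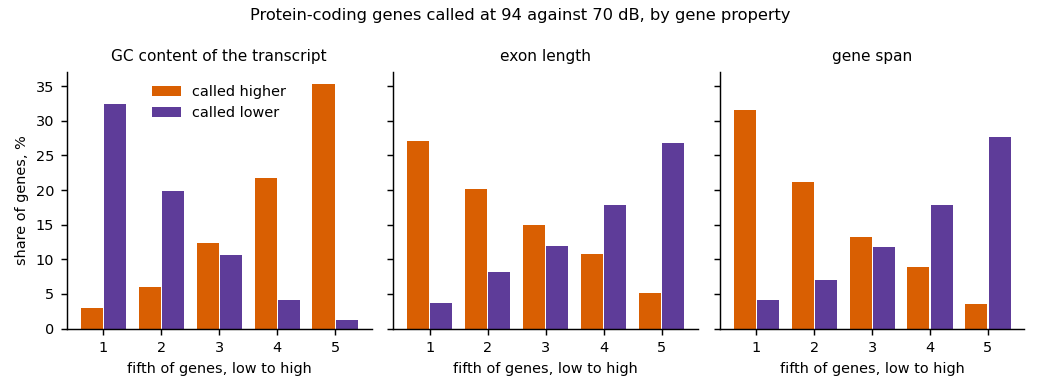
Share of protein-coding genes called higher or lower at 94 against 70 dB in 5 equal groups of GC content, exon length and gene span. The share called higher climbs from 2.9% to 35.3% with GC content and drops from 27.1% to 5.2% with exon length.

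Of 9 outer hair cell genes none was called in either direction. Of 12 genes of mechanotransduction and the tip link 1 was higher, of 19 genes of the stereocilia bundle 2 were higher and 3 lower, and of 11 genes of inner hair cells and the ribbon synapse 1 was higher and 2 lower. The last 2 lists had 26.3% and 27.3% of their members called, near the 26.1% of all genes. Otof was at 46.2, 39.5, 37.2 and 37.9 CPM at 70 dB and 40.9, 39.7, 38.2 and 34.2 CPM at 94 dB (-0.07 ± 0.08, adjusted p = 0.54). Tmc1, a pore subunit of the transduction channel, was at 8.69, 7.08, 9.35 and 7.34 CPM and 6.86, 7.12, 5.62 and 6.16 CPM, with overlapping groups (adjusted p = 0.06). Ptprq, a phosphatase of stereocilia, and Eps8, which caps actin at their tips, fell by 0.45 and 0.38 (adjusted p = 0.0081 and 0.007), calls lost in both settings. On noise replicates 1 and 2 alone, no gene of the stereocilia and inner hair cell lists was called.

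Supporting cell and NOTCH pathway genes moved both ways, 4 of 20 higher and 7 lower, with a median of -0.01. The summed level of 5 supporting cell markers was 1519 to 1650.0 CPM at 70 dB and 1135 to 1358 CPM at 94 dB, with no overlap and 3 of the 5 called lower, and its part in the list was not tested. Gjb2, described below with the lateral wall, is 1 of the 5 markers. Its mean went from 731 to 550 CPM, and that of the sum from 1561 to 1270 CPM. Lfng, which modifies NOTCH receptors, was at 27.1, 27.5, 27.5 and 23 CPM at 70 dB and 42.8, 44.3, 40.9 and 44 CPM at 94 dB (0.71 ± 0.08, adjusted p = 4e-05). Fgfr3, a growth factor receptor of pillar and Deiters' cells, was at 28.4, 29, 28.7 and 23.9 CPM and 39.5, 37.9, 43.4 and 41.7 CPM (0.56 ± 0.08, adjusted p = 0.00015). Both were higher in every noise library. Sox9, a transcription factor of the otic epithelium, was lower in every noise library, at 87.1, 86.3, 88.9 and 87 CPM at 70 dB and 64.9, 62.8, 71.2 and 66.2 CPM at 94 dB (-0.40 ± 0.06, adjusted p = 0.00042). Lgr5, an R-spondin receptor that marks progenitor-like supporting cells, went from 14.8, 15.9, 16.2 and 17.1 CPM to 12.1, 11.6, 11.3 and 9.08 CPM, and Hey2, a NOTCH target of pillar cells, from 18.5, 22.7, 23.1 and 21.9 CPM to 17, 13.4, 17.4 and 14.9 CPM. Neither gene's groups overlapped (adjusted p = 0.0013 and 0.0044), and the call on Hey2 was lost without 70 dB replicates 2 and 3. Of 10 genes of the tectorial and otolithic membranes 4 were higher, 3 of them collagens, and Tecta, which encodes a major tectorial protein, was lower by 0.49 (adjusted p = 0.0097). When noise replicates 3 and 4 were left out, the call on Tecta was lost, the supporting cell list had 2 higher and 5 lower and the membrane list 2 higher.

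In the lateral wall lists more members were called lower than higher, but marker sums overlapped between groups. The sum of 5 spiral ligament fibrocyte markers was 9030 to 10520 CPM at 70 dB and 8835 to 9639 CPM at 94 dB. Of these 5, 2 were called higher and 1 lower. The sum of 5 stria vascularis markers was 355 to 386 CPM and 378 to 432 CPM, with none called. Of 15 connexin and fibrocyte genes 6 were lower and 2 higher, with a median of -0.18. Gjb2 (chr14:57098600-57104702), the connexin 26 gene whose mutations cause deafness, was at 737, 716, 761 and 710.1 CPM at 70 dB and 581, 583, 547 and 490.5 CPM at 94 dB (-0.41 ± 0.07, adjusted p = 0.00069). Car3, a carbonic anhydrase of type I fibrocytes, was at 1015, 1082, 948 and 977 CPM and 752, 698, 649.7 and 718 CPM (-0.51 ± 0.07, adjusted p = 0.00013). Tbx18, a transcription factor needed for fibrocyte formation, was at 74.6, 73.3, 72.6 and 70.5 CPM and 52.5, 50.05, 49.1 and 47.7 CPM (-0.55 ± 0.06, adjusted p = 4e-05). None of the 3 overlapped between groups. Otos, a short secreted protein of the same fibrocytes, went the other way, at 843, 863, 728 and 869 CPM and 1170.0, 1118, 2193 and 2051 CPM (0.98 ± 0.21, adjusted p = 0.0062), and its rise was 0.47 without noise replicates 3 and 4 and not called without 70 dB replicates 2 and 3 (adjusted p = 0.057). Coch, from the same cells, was at 6137, 6705, 7835 and 6805 CPM and 6270.0, 6511, 5813 and 5217 CPM and did not pass (adjusted p = 0.11). Of 15 stria vascularis ion transport genes 4 were lower and none higher: Atp1b2, Atp1b1, Kcnj10 and Kcnj13, with log2 fold changes of -0.36, -0.26, -0.21 and -0.92 in that order. Atp1b1 and Atp1b2 encode sodium pump subunits and Kcnj10 a potassium channel needed for the endocochlear potential. Without noise replicates 3 and 4, 1 of the 15, Kcnj13, was called lower, and the fibrocyte list had 1 higher and 5 lower.

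Neuronal lists had more lower than higher members, while the sum of 5 spiral ganglion neuron markers overlapped between groups. That sum was 2101 to 2425 CPM at 70 dB and 2002 to 2372 CPM at 94 dB, with 1 marker called lower and none higher. Of 24 genes of spiral ganglion neurons and synaptic vesicles 6 were lower and 1 higher, of 21 glutamate receptor subunits 7 lower and 2 higher, of 14 sodium channel subunits 5 lower and 1 higher, and of 78 potassium channel subunits 15 lower and 8 higher. One ambient library weighs on these counts. Of 10 genes typical of nociceptor neurons, a list written after single genes had been seen, 9 were tested and all 9 were highest in 70 dB replicate 4. Their summed level was 71.3, 42.6, 114 and 445 CPM at 70 dB and 13.7 to 75.3 CPM at 94 dB, with 2 called lower and none higher. Scn11a, a sodium channel of such neurons, was at 0.632, 0.283, 4.23 and 31.9 CPM at 70 dB and 0.383, 0.372, 0.221 and 0.268 CPM at 94 dB, and its call was lost in both settings. Without 70 dB replicate 4 the sodium channel list had no lower member, the glutamate receptor list had 3, the potassium channel list 8 and the ganglion list 5, where 8.10% of all genes were lower. The part of such neurons in these falls was not tested further. With noise replicates 1 and 2 only, the 4 lists had 2, 1, none and 4 lower members in the order given above.

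Some neuronal genes differed beyond that library. Map1b, a microtubule protein of axons, was at 471, 451, 532 and 696 CPM at 70 dB and 362, 314, 337 and 296 CPM at 94 dB (-0.72 ± 0.12, adjusted p = 0.00088). Slc17a6, the vesicular glutamate transporter VGLUT2, was at 51, 51.6, 56.6 and 81 CPM and 40.8, 37.6, 41.6 and 41.6 CPM, and Kcnb2, a delayed rectifier channel, at 20.8, 21.9, 20.5 and 29.7 CPM and 14.7, 14, 15.7 and 14.6 CPM. In all 3 genes ambient replicate 4 was the highest library, yet the other 3 ambient libraries also lay above every noise library. The call on Slc17a6 was lost without noise replicates 3 and 4. Slc17a7, the related transporter VGLUT1, was at 125, 110.3, 113 and 99.5 CPM and 116, 136, 158 and 133 CPM, a rise of 0.27 with overlapping groups (adjusted p = 0.038), a call lost in both settings. Kcnk5, an acid-sensitive background channel, rose by 0.79 ± 0.10 (adjusted p = 0.00011). Of 16 genes of neurotrophins and their receptors 2 were higher and 3 lower.

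Schwann cell genes had 6 of 18 members lower and 2 higher, with a median of -0.305, and 2 lower without noise replicates 3 and 4. Gldn, which Schwann cells secrete to gather sodium channels at nodes of Ranvier, was at 41.3, 38.1, 37.6 and 40.5 CPM at 70 dB and 24.1, 24.4, 26.5 and 28.4 CPM at 94 dB (-0.61 ± 0.08, adjusted p = 9.1e-05). Erbb3, their neuregulin receptor, was at 36.9, 33.3, 37.8 and 39.5 CPM and 31.9, 24.6, 28.6 and 28.5 CPM (adjusted p = 0.0043). Neither overlapped between groups. Summed levels of 5 Schwann cell markers were 2555 to 4371 CPM at 70 dB and 2057 to 2967 CPM at 94 dB, and the part of nerve content in the list was not tested. Pou3f2, a POU factor of neural and glial precursors, was at 14, 13.1, 14.9 and 13.6 CPM and 6.89, 7.41, 7.41 and 8.68 CPM with no overlap (-0.87 ± 0.10, adjusted p = 4e-05).

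Of 18 macrophage and complement genes 7 were higher and 1 lower. The summed level of 5 macrophage markers, C1qa and C1qc among them, was 346 to 411 CPM at 70 dB and 450.0 to 570.4 CPM at 94 dB, with no overlap and 3 of the 5 called higher, and its part in the other changes was not tested. C1qa and C1qc encode chains of the complement starter C1q. C1qa was at 65.3, 79.6, 75.4 and 67.8 CPM at 70 dB and 110.2, 122, 134 and 164 CPM at 94 dB (0.88 ± 0.11, adjusted p = 0.00012), and C1qc was at 49, 60.3, 54.9 and 47.2 CPM and 74, 78.9, 79.5 and 85.9 CPM (0.59 ± 0.08). Cx3cr1, the fractalkine receptor, was the lower member of the list, at 27.4, 21.4, 21.6 and 24.4 CPM and 17, 15, 13.4 and 14.6 CPM (-0.66 ± 0.11, adjusted p = 0.00054). C3ar1, the receptor for complement fragment C3a, was at 10.1, 9.01, 7.84 and 9.88 CPM and 5.83, 5.26, 4.64 and 4.5 CPM (-0.86 ± 0.13), and P2ry12, a purine receptor best known from microglia and platelets, was at 11.5, 10.7, 12.1 and 11 CPM and 6.98, 7.65, 7.16 and 8.33 CPM (-0.58 ± 0.11). The 2 groups did not overlap in any of these 5 genes. C3ar1 and P2ry12 are outside the list, and P2ry12 was chosen after its values were seen. Cx3cr1 and P2ry12 each lie opposite another gene. On noise replicates 1 and 2 alone, the list had 3 higher and 1 lower.

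Red cell markers followed the pairs of noise libraries, while neutrophil markers did not split by pair. Of 16 neutrophil granule genes 6 were higher and none lower, and of 20 erythroid genes 6 were higher and 2 lower. The summed level of 5 neutrophil markers was 6617 to 8241 CPM at 70 dB and 6745, 9970, 10860 and 13960 CPM in the 94 dB libraries. That of 5 red cell markers was 17130 to 21010 CPM at 70 dB and 17830, 21300, 30210 and 31350 CPM at 94 dB. When noise replicates 3 and 4 were left out, the neutrophil list had 2 higher members and the erythroid list 3. Of 18 lymphocyte genes 2 were higher: Cd79a, a chain of the B cell receptor complex, with 44, 39.9, 41.5 and 31.7 CPM and 56.9, 62.7, 66.1 and 68.8 CPM (0.70 ± 0.10), and Cd3d of the T cell receptor complex with a rise of 0.70, lost without noise replicates 3 and 4. The part of blood or marrow content in these rises was not tested.

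**Figure D5:**
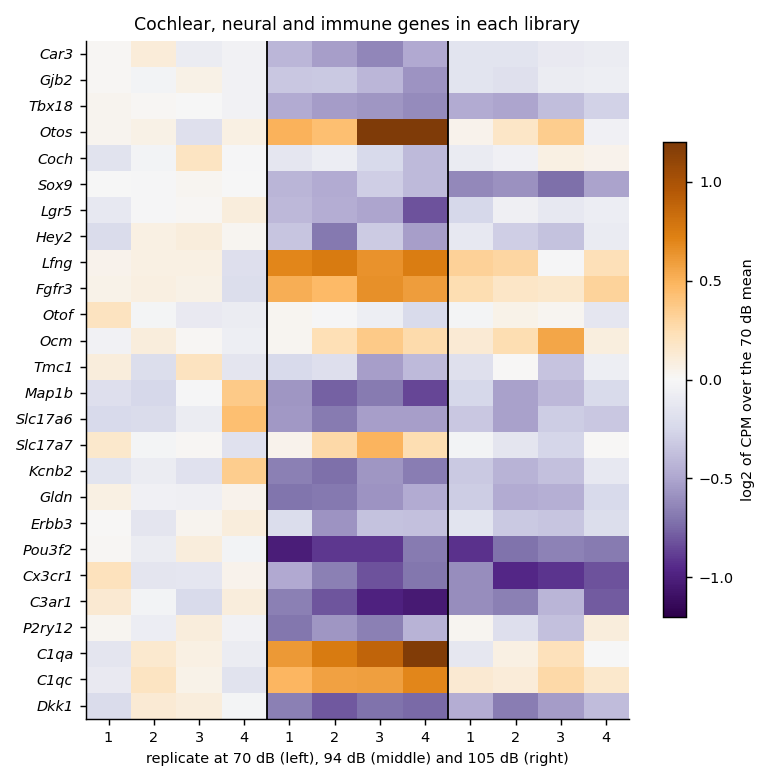
Log2 of the CPM of each library over the 70 dB mean for 26 cochlear, neural and immune genes, with libraries in columns (70, 94 and 105 dB from left to right) and colours that stop at ±1.2. Lfng, Fgfr3, C1qa and C1qc are higher in all 4 libraries at 94 dB, Car3, Gjb2, Tbx18, Gldn, Pou3f2 and Cx3cr1 are lower in all 4, and Otof and Tmc1 show no such split.

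Of 21 genes of endothelial activation and adhesion 8 were higher and none lower, with a median of 0.13, and 3 were called higher without noise replicates 3 and 4. Among targets of SRF and YAP, which respond to actin tension and stretch, 7 of 21 were higher and 1 lower, or 6 and none without noise replicates 3 and 4. Ccn1 (chr3:145646976-145649981), a matricellular protein, was at 79.6, 89.5, 86.4 and 71.2 CPM at 70 dB and 203, 287, 325 and 288 CPM at 94 dB (1.75 ± 0.13, adjusted p = 1.4e-06). Its relative Ccn2 was at 165, 210.5, 226 and 173 CPM and 337, 346, 375 and 364 CPM. All noise values of both genes lay above all ambient values. Collagen genes went both ways, 5 of 43 higher and 8 lower, with Col9a2 of cartilage-type fibrils up by 0.63 and Col5a2 down by 0.40. Of 18 bone cell genes 2 were higher and 5 lower, and the collagen and bone lists had 4 and 3, and none and 3, higher and lower without noise replicates 3 and 4. Dkk1, a secreted WNT inhibitor, was at 26.5, 33.5, 32.9 and 30.2 CPM and 19.5, 17.6, 18.7 and 18.4 CPM (-0.73 ± 0.09, adjusted p = 5.6e-05), with no overlap. In the BMP, TGF-beta and WNT feedback list Id1 and Id3, inhibitors of helix-loop-helix factors, rose by 0.61 and 0.68, in a list with 8 of 30 members higher and 6 lower, or 4 and 3 without noise replicates 3 and 4.

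In several lists more members were lower than higher, though most were not called. Of 331 zinc finger genes named Zfp with a number 97 were lower and 21 higher, with a median of -0.16, and Zfp40 was at 11.1, 12, 13.3 and 16.3 CPM at 70 dB and 7.36, 8, 8.01 and 6.59 CPM at 94 dB (-0.81 ± 0.12). Without noise replicates 3 and 4 the list had 28 lower and 10 higher. Of 22 genes of cholesterol and fatty acid synthesis 6 were lower and none higher, among them Hmgcs1, which makes HMG-CoA, at 119, 99.7, 127 and 164 CPM and 94.6, 74.9, 77.7 and 80.3 CPM (adjusted p = 0.0026), whose call was lost without noise replicates 3 and 4. Of 22 imprinted genes 8 were lower and 1 higher. With noise replicates 1 and 2 only, the cholesterol list had 2 lower members and the imprinted list 3. Plagl1, a zinc finger factor of an imprinted growth network, was at 16.2, 21.7, 22.3 and 21.5 CPM and 11.4, 9.54, 7.29 and 6.99 CPM (-1.21 ± 0.17, adjusted p = 0.00025). St8sia2, which builds polysialic acid on the neural adhesion molecule NCAM, was at 13.2, 12.5, 14.5 and 11.8 CPM and 7.54, 8.95, 6.21 and 6.99 CPM (-0.81 ± 0.11, adjusted p = 0.00016). In the last 2 genes the highest noise library lay below the lowest ambient library.

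In glycolysis and hypoxia genes 9 of 29 were higher and 1 lower. Slc2a1, a glucose transporter of blood vessels, went from 120.2 ± 7.93 to 154 ± 10.3 CPM (adjusted p = 0.0015), and Tpi1 of glycolysis rose by 0.52. On noise replicates 1 and 2 alone, that list had 5 higher and none lower. The called genes with the largest differences in CPM included Ptgds, which makes prostaglandin D2 (from 7633 ± 445 to 10220.0 ± 964 CPM), Apoe, a lipid carrier (1784 ± 60.4 to 2481 ± 241 CPM), and Fbxo2, an F-box protein abundant in supporting cells (613 ± 27.6 to 1046 ± 226 CPM). The calls on Ptgds and Apoe were lost in both settings. Oaz1, which restrains polyamine synthesis, went from 368, 407, 355 and 370.0 CPM to 587, 642, 891 and 864 CPM, with noise replicates 3 and 4 highest (0.99 ± 0.12, adjusted p = 5.4e-05).

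The 105 dB libraries place these values on a scale of sound level. At 105 against 94 dB 3372 genes (17.3%) differed, a comparison that shares the 94 dB libraries with the one above, and 217 did without noise replicates 3 and 4. For several stimulus genes no difference between the 2 noise levels was detected. Tsc22d3 was at 480.1, 475, 429.7 and 446 CPM at 105 dB, against a mean of 457 CPM at 94 dB (log2 difference 0.00). Tob2 was at 109, 113, 102 and 104 CPM, Ccn1 at 269.8, 282, 229 and 294 CPM and Btg2 at 139, 168, 121 and 156 CPM, and their differences from 94 dB were -0.02, -0.04 and -0.01. Others were lower at 105 than at 94 dB. Ier5, an immediate early gene with 34.2, 34.1, 34.5 and 31.4 CPM at 70 dB and 49.2, 54.9, 58.1 and 62.2 CPM at 94 dB, was back at 33.2, 31.9, 36.8 and 35.6 CPM (-0.71, adjusted p = 0.00023). Pim3 was at 117, 115, 110.4 and 122 CPM and Junb at 63.3, 69.4, 58.3 and 66.4 CPM, between their ambient and 94 dB values (-0.56 and -0.57, adjusted p = 0.0037 and 0.0062), calls lost in both settings. Fosb was the reverse, at 7.06, 7.37, 7.66 and 8.99 CPM and above all 94 dB libraries (0.92, adjusted p = 0.0048), a call lost without noise replicates 3 and 4 (adjusted p = 0.094).

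Genes lower at 94 dB also differed in where they stood at 105 dB. Nr1d1 was at 96.2, 99.7, 92.3 and 92 CPM, Cx3cr1 at 15.6, 12.2, 12.6 and 13.4 CPM and Pou3f2 at 7.31, 8.46, 8.85 and 8.67 CPM, values within or near the range at 94 dB (adjusted p = 0.93, 0.34 and 0.42). Sox9 was lower again, at 56.9, 58.1, 52.6 and 61.3 CPM (-0.21, adjusted p = 0.029), a call lost without noise replicates 3 and 4. Car3 at 905, 902, 935 and 946 CPM, Gjb2 at 656, 644, 688 and 697 CPM and St8sia2 at 13.2, 14.1, 13.2 and 13.1 CPM were above all 94 dB libraries, with differences of 0.39, 0.29 and 0.85 (adjusted p = 0.0025, 0.011 and 0.00055), of which the call on Gjb2 was lost without noise replicates 3 and 4. mt-Nd1 was at 5943, 5712, 6683 and 6418 CPM at 105 dB, above all 94 dB libraries. Among genes higher at 94 dB, Atp5e was at 127, 118, 138 and 80.5 CPM, Otos at 852, 933, 1057 and 796 CPM, Rplp1 at 545, 596, 614 and 448 CPM and C1qa at 66, 75.9, 84.1 and 71.7 CPM, each below the 94 dB mean (adjusted p = 0.022, 0.019, 0.01 and 0.0009). Of these 4 calls the one on C1qa held without noise replicates 3 and 4 (adjusted p = 0.011, against 0.23, 0.12 and 0.10). Mien1, a small membrane protein that overlaps Erbb2, had 5.43, 4.55, 5.49 and 6.46 CPM at 70 dB, 13.7, 15.5, 22.6 and 18.6 CPM at 94 dB and 6.04, 5.48, 9.08 and 5.01 CPM at 105 dB.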

How the data were processed

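RNA-seq libraries of cochlea were deposited by the authors as a table of raw read counts per Ensembl gene. The submitters' processing notes name CASAVA, STAR, featureCounts 1.5.0-p3 and mm10, with the annotation, strand setting and treatment of multiply aligned reads not given in the sources used here. From these counts, edgeR 4.0.16 in R 4.3.3 was run on all 12 libraries in 3 groups (filterByExpr with a minimum count of 10, TMM factors, robust quasi-likelihood fit), and the contrast of 94 against 70 dB was tested with Benjamini-Hochberg adjustment at 0.05. CPM values use TMM-scaled totals, and 3 counts are 0.0702 to 0.0965 CPM. Symbols, GC content and overlaps come from GENCODE M21 on GRCm38 (mm10), which also gave the coordinates, and promoters come from RefSeq. Groups are those of the labels, with replicate numbers as given there, and the block was only an alternative. Gene lists were described by counts and medians. Members, lists and markers were chosen with earlier results of these data known. Genes named were the 30 largest rises and falls, the 30 largest CPM differences and the 4 smallest p-values of each list, and 20 others chosen for their role or after their values were seen. The rises and falls were ranked only among called genes above a minimum average level, without clone names, and with no overlap between the 94 and 70 dB libraries. For genes named that way the lack of overlap was a condition of choice and is no separate result. DESeq2 1.42.0, other scalings and filters, a replicate block, removal of GC and length trends and leaving out libraries were alternatives. Of the 319 genes that rule gives, 92 are named and the others are not reported here. The fit was tested on simulated data (19271 genes), where it called 48 of 50 genes raised 2-fold, 41 of 50 lowered 2-fold, 46 of 50 raised 1.5-fold, 45 of 50 lowered 1.5-fold and 8 unchanged genes. The changed genes left out the lowest levels, and the simulated counts held no GC and length trend and no pairs of noise libraries. The simulation therefore does not test the calls against those features.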

Additional observations from a re-analysis of the deposited data

Results flagged for a closer look

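In 19 of 345 groups of 4 values checked (each named gene at each sound level, and 3 measures of library makeup), 1 library lay far from the other 3, and chance alone does this in about 1 in 20 groups. Of these, 5 were in 70 dB replicate 4. Scn11a was at 31.94 CPM there, against 0.283 to 4.233 CPM in the other ambient libraries. Kcnb2 was high in that library (29.68 CPM against 20.54 to 21.86), and Lfng (23.03 CPM), Fgfr3 (23.91 CPM) and Ier5 (31.44 CPM) were low, each below 27.07 to 27.52, 28.45 to 28.99 and 34.13 to 34.47 CPM in the others. Nr1d1 was high in 70 dB replicate 1 at 187.1 CPM and low in 94 dB replicate 4 at 85.59 CPM. Plagl1 was low in 70 dB replicate 1 (16.18 CPM), Fosb high in 70 dB replicate 2 (1.958 CPM) and Uqcr11 low in 70 dB replicate 3 (38.07 CPM). At 94 dB, Col9a2 was high in replicate 3 (287.7 CPM against 216.2 to 220.6) and Tsc22d3 in replicate 2 (505.9 CPM). At 105 dB replicate 3 was high for Apoe (2325 CPM) and low for Csrnp1 (17.45 CPM), Nr4a3 (20.22 CPM) and Ptprq (10.66 CPM). At 105 dB replicate 2 was low for Hmgcs1 (93.25 CPM) and Slc17a6 (41.85 CPM) and high for St8sia2 (14.06 CPM).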

How the results depend on the processing

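With the trend on GC content and exon length removed, 3191 genes were called (1325 lower), 2279 of them calls of the main setting, and 1905 at 105 against 94 dB. With that trend removed and a replicate block, 1465 genes were lower and 2033 differed at 105 against 94 dB. Without 94 dB replicates 3 and 4, 1610 genes were called (1034 higher, 576 lower), and 217 at 105 against 94 dB, and without replicates 1 and 2, an alternative chosen after seeing the data, 5399. Without 70 dB replicates 2 and 3, also chosen after seeing the data (their heat shock genes), 3112 genes were called (1663 higher, 1449 lower). Hsph1 then changed sign (to 0.4622), and the calls on Hey2, Otos, Uqcr11, Atp1b1, Kcnj10, Ptgds and Slc17a7 were lost. Leaving out 1 library at a time gave 3452 to 5409 calls, 1956 to 3056 higher, 1496 to 2487 lower, and 1650 to 3798 at 105 against 94 dB. The libraries that moved a count by over 1.5 times were 94 dB replicate 3 (1523 lower, 1650 at 105 against 94 dB), 94 dB replicate 4 (1496 and 1860), and for 105 against 94 dB also 105 dB replicates 2 (2057) and 4 (1996). The cause was not tested, beyond the fewer samples. DESeq2 called 5768 genes, DESeq2 size factors 5089, no filter 4414, a filter at 1 CPM 5236, and the 8 compared libraries alone 4288. Upper-quartile factors called 5176 genes (2329 higher, 2847 lower) and moved the higher share of calls from 53.4 to 45.0%. A replicate block gave 5084 calls. Same-numbered libraries were not treated as paired in the main fit, and the labels do not say whether they were handled together. The correlations of their deviations were 0.026, 0.109, -0.040 and 0.086, with 3 of 4 libraries closest to their own number. These values do not settle whether they were paired. Genes below a few CPM are limited by depth.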

Other observations

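Genes of RNA processing and chromatin were not described above. Of 37 splicing factor genes 7 were higher at 94 dB and 1 lower, and 9 were higher without 94 dB replicates 3 and 4. Hnrnpa0, which binds AU-rich elements of mRNA, was at 218, 175, 168 and 164 CPM at 70 dB and 304, 334, 366 and 311 CPM at 94 dB, with no overlap (0.86 ± 0.10, adjusted p = 2.9e-05, edgeR with Benjamini-Hochberg adjustment). Of 42 histone genes 10 were higher and none lower, with a median of 0.51, but 1 was called without 94 dB replicates 3 and 4. Their near-identical copies share reads, so single histone genes are uncertain. Of 19 snoRNA host genes and abundant nuclear RNAs, taken as 1 list, 5 were higher and 2 lower. Among classes of transcript, 25 of 789 lincRNA genes (3.2%) were higher and 55 (7.0%) lower. Of 586 processed pseudogenes 79 (13.5%) were higher and 24 (4.1%) lower. None of these shares was above that of all genes tested, 13.9% higher and 12.2% lower. The median SE of the log2 fold change was 0.31 and 0.34 in the 2 classes, against 0.10 in protein-coding genes. Metrn, a secreted factor of glia and neurites, was at 2.67, 1.65, 1.14 and 1.13 CPM at 70 dB, 4.24, 5.05, 8.33 and 6.94 CPM at 94 dB and 2.12, 1.74, 1.74 and 1.16 CPM at 105 dB.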
